A study of Homo sapiens with 6 samples.

Results

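The genes described here encode the amino acid transporter families SLC1, SLC3, SLC6, SLC7, SLC36, SLC38 and SLC43. They were chosen by symbol alone, as every gene named by 1 of these 7 family prefixes followed by A and a number, with pseudogene copies such as SLC7A5P1 left out. The rule took 59 of the 58395 genes in the count files: 7 of SLC1, 2 of SLC3, 19 of SLC6, 13 of SLC7, 4 of SLC36, 11 of SLC38 and 3 of SLC43. RNA was sequenced from THP-1, an established human monocytic leukaemia line grown in RPMI medium with serum. Of the 6 libraries, 3 came from cells with no exposure (untreated) and 3 from cells given 1 µM monensin for 16 h. Monensin is an ionophore: it lets sodium cross membranes while protons move the other way. The labels name no vehicle for the untreated cells, so an effect of a vehicle and of monensin cannot be told apart.

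Solute carriers of these families move amino acids across the plasma membrane or out of the lysosome. Many SLC1, SLC6 and SLC38 members are driven by the sodium gradient, and some SLC36 members, such as SLC36A1, move amino acids together with protons. The light chains of SLC7 exchange 1 amino acid for another. The light chains reach the cell surface bound to a glycoprotein heavy chain, SLC3A2 or SLC3A1. Several of these genes are known targets of the transcription factor ATF4, which cells use when amino acids are short or the endoplasmic reticulum is stressed.

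The depth was 22975888 to 25710513 counts on genes per library. Values below are CPM, gene counts relative to library size in the usual units, with sizes scaled by TMM, and a member was called raised or lowered at an adjusted p under 0.05 by edgeR's quasi-likelihood test fitted on all genes. The 11 myeloid markers listed to check the label were all detected. They summed to 1863 to 1934 CPM in untreated and 1411 to 1481 CPM in monensin libraries. Of these markers 5 were raised and 4 lowered, beside 34.1% and 33.7% of all tested genes. Without the lysozyme gene LYZ, which fell from 791 ± 14.3 to 292 ± 24.2 CPM, the other 10 summed to 1088 to 1141 CPM and 1141 to 1192 CPM. The 14 markers of T, B, erythroid, epithelial and fibroblast cells summed to 3.34 to 4.69 CPM and 5.64 to 6.21 CPM. Of those, 8 were at 0 in the untreated and 9 in the monensin group, among them CD3E, HBB, EPCAM and KRT19, while the fibroblast marker COL1A1 was called raised at a low level. The part of these shifts in the results was not tested. In a bulk sample, fewer cells that carry a transcript and less of it per cell cannot be told apart.

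The glycine carrier SLC6A9, the heavy chain SLC3A2, its light chains SLC7A5, SLC7A7 and SLC7A11, and the exchangers SLC1A4 and SLC1A5 rose with monensin, while the carriers SLC38A5, SLC36A4, SLC43A3 and SLC6A11 fell. Of the 59 members, 31 passed the filter on low counts. Among these, 16 were raised and 6 were lowered, 51.6% and 19.4%, beside 34.1% and 33.7% of all 16542 tested genes. A rise of at least 2-fold was called for 11 members (35.5%, beside 9.41% of all tested genes) and a fall of at least 2-fold for 2 members (6.45%, beside 3.83%). The median log2 fold change was 0.48 for the tested members and 0.02 for all tested genes. SLC6A12, SLC7A8, SLC7A10 and SLC6A16 passed the filter only through the monensin libraries, so a rise of theirs is partly built into these counts and this median. The families were also chosen with earlier results of these data known. The median of the tested members is the value of SLC6A16 itself, which was not called, so it does not measure a shift of the families. The 2 groups did not overlap for 77.4% of the tested members, beside 71.1% of all tested genes. Nothing in the labels says that the 3 libraries of a group came from separate cultures, so p-values measure the spread between these libraries, which may be technical.

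**Figure D1:**
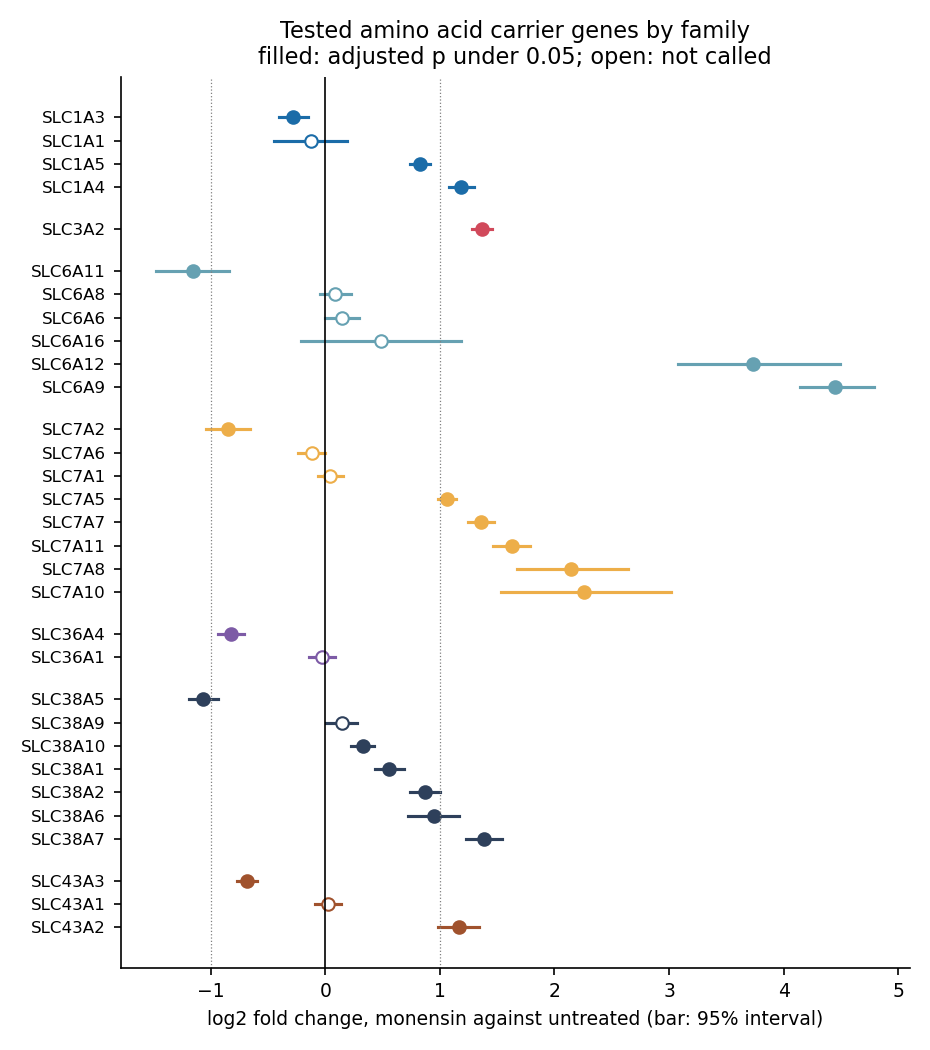
Log2 fold change of monensin against untreated for the 31 tested members, grouped by family, with 95% intervals; filled points were called at an adjusted p under 0.05 and open points were not. The widest range is in SLC6, from -1.16 for SLC6A11 to 4.45 for SLC6A9, and 5 of the 8 tested SLC7 members lie at 1 or more.

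Promoter windows from RefSeq (GRCh38.p14), each with 250 bases before and 50 after the start, were at hand for 26 of the 31 tested members. They were searched on both strands for the C/EBP-ATF composite letters TGATGNAA, the core bound by ATF4 with C/EBP proteins. These letters stood in 4 of 26 windows (15.4%) and in 3.67% of 27305 promoter windows in all, which include those of genes not tested. Each match is shown with the bases around it, 30 in all and 5′ to 3′ on the gene's strand, the matched letters in capitals, because the 4 genes did not move together:
SLC1A3: caggaaatgacTGATGCAAagcagggttaa
SLC38A1: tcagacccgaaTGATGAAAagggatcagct
SLC7A1: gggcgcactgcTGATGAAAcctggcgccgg
SLC3A2: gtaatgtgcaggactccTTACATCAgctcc

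The stretches lie at chr5:36596357-36596386 on the plus strand for SLC1A3, chr12:46266502-46266531 on the minus strand for SLC38A1, chr13:29595663-29595692 on the minus strand for SLC7A1 and chr11:62881719-62881748 on the plus strand for SLC3A2. In SLC3A2 the letters match on the reverse strand. Of these genes SLC3A2 and SLC38A1 were raised, SLC1A3 was lowered, and SLC7A1 was not called. Among raised members, 2 of 14 windows (14.3%) held the letters, beside 1 of 8 (12.5%) among members not called. The table gives a single start per gene, which need not be the start used in THP-1, and a match is a description of letters only.

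The antioxidant response letters TGACNNNGC, the core bound by NFE2L2, stood in 5 of the 26 windows (19.2%) and in 13.6% of all windows. Among members not called 2 of 8 held them (25%), and among members raised at least 2-fold 3 of 9 did (33.3%). Whether the letters set raised members apart was not tested. Among the raised members 3 of 14 held them (21.4%), and these 3 were the heavy chain SLC3A2 and its light chains SLC7A5 and SLC7A7. The match of SLC7A5 is shown in 30 bases at chr16:87869491-87869520 on the minus strand, and those of the other two in the 250 bases before the start, at chr11:62881449-62881698 on the plus strand for SLC3A2 and chr14:22819792-22820041 on the minus strand for SLC7A7. Capitals mark the match:
SLC7A5: ggcggggttccTGACGCAGCtgcgggcggc
SLC3A2: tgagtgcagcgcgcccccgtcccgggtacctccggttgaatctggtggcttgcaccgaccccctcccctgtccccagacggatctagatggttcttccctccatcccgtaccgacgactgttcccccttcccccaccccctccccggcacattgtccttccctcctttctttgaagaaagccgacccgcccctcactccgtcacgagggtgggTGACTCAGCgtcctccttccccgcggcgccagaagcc
SLC7A7: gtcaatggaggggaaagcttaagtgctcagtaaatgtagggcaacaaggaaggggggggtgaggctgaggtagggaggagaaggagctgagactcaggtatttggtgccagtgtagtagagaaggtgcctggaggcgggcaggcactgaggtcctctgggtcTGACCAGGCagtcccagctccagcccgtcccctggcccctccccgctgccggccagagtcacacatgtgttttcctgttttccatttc

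SLC7A6 and SLC7A1, which were not called, held the remaining matches. The lysosomal CLEAR letters TCACGTGA stood in 0 of 26 windows and in 1.04% of all windows. For the 6 lowered members only 4 windows were at hand (66.7%), under the 80% set as a minimum, so a share over them is void. The same holds for all 59 members, with 44 windows at hand (74.6%).

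The heavy chain SLC3A2, also known as CD98, lies on chromosome 11 from 62856102 to 62888875 (GRCh38). It was measured at 157, 156 and 152 CPM in the untreated libraries and at 397, 387 and 413 CPM in the monensin libraries. All monensin libraries stood above all untreated libraries, with a log2 fold change of 1.36 (SE 0.04, edgeR adjusted p = 3.47e-13). SLC3A1, the heavy chain of kidney and gut epithelium, had 17 counts over the untreated and 14 over the monensin libraries and was too low to test. It shares 1923 exonic bases with PREPL on the opposite strand, and whether counting used strand is not stated in the sources at hand.

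Of the 8 light chains of SLC7, 6 were tested and 5 of these were raised, each at least 2-fold, beside 34.1% raised and 9.41% raised at least 2-fold among all tested genes. Of the 5, SLC7A8 and SLC7A10 passed the filter only through the monensin libraries. The grouping by role was written with the members' values in view, which may also be built into these counts. SLC7A5, the carrier of large neutral amino acids such as leucine, lies on chromosome 16 from 87830023 to 87869488. Its levels were 211, 214 and 210 CPM untreated and 451, 440 and 436 CPM with monensin, a log2 fold change of 1.06 (SE 0.04, edgeR adjusted p = 2.22e-12). Adding the counts of its pseudogene copies SLC7A5P1 and SLC7A5P2 also gave 1.06; a correction for GC content and exonic length gave 0.86, still called but under 2-fold. SLC7A5P1 itself had 82 counts untreated and 55 with monensin and was called lowered (log2 fold change -0.59, SE 0.25, edgeR adjusted p = 0.0495).

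SLC7A11, the cystine and glutamate exchanger that feeds glutathione synthesis, lies on chromosome 4 from 138164097 to 138242349. It was measured at 26.5, 31.2 and 26.1 CPM untreated and at 89.6, 91.3 and 77.5 CPM with monensin. Its log2 fold change was 1.63 (SE 0.07, edgeR adjusted p = 4.07e-11), the highest among light chains above 10 CPM. SLC7A11-AS1, on the opposite strand with 865 shared exonic bases, had 0 and 2 counts over the untreated and monensin libraries.

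SLC7A7, which exports cationic amino acids in exchange for neutral ones and sodium, lies on chromosome 14 from 22773222 to 22829820. Its levels were 21.4, 22.6 and 22.5 CPM untreated and 57.0, 56.3 and 56.8 CPM with monensin (log2 fold change 1.36, SE 0.05). SLC7A6, a light chain of the same transport type, stood at 76.2, 77.2 and 86.5 CPM untreated and at 74.6, 71.5 and 74.5 CPM with monensin. SLC7A6 was not called (log2 fold change -0.12, 95% interval -0.24 to -0.01, edgeR adjusted p = 0.0592), although its groups did not overlap. Thus 2 carriers of 1 transport type gave values on opposite sides of 0, and the difference between them was not tested. SLC7A6 shares 3371 exonic bases with SLC7A6OS on the opposite strand, so its count is uncertain.

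The remaining raised light chains were rare transcripts. SLC7A8, a carrier of neutral amino acids, had 0.642, 0.557 and 0.364 CPM untreated and 2.34, 2.36 and 2.27 CPM with monensin. SLC7A10, which exchanges small neutral amino acids including D-serine, had 10, 2 and 8 counts untreated and 29, 35 and 34 counts with monensin. Both stood higher in all monensin libraries (log2 fold changes 2.15, SE 0.23, and 2.25, SE 0.35). SLC7A10 shares 204 exonic bases with LRP3 on the opposite strand, a gene with 6933 counts untreated and 6228 with monensin, so its low count is uncertain. SLC7A9 had 3 counts in each group, and SLC7A13 had none.

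Per kilobase of exon, the ratio of SLC3A2 to its light chains was higher in the monensin libraries. The summed level of SLC7A5, SLC7A6, SLC7A7, SLC7A8, SLC7A10 and SLC7A11 was 62.5 ± 0.798 CPM per kilobase untreated and 124 ± 2.17 with monensin (mean ± SD, n = 3 per group). SLC3A2 stood at 29.9 ± 0.541 and 77.1 ± 2.52 CPM per kilobase. The ratio of SLC3A2 to the light chains was 0.492, 0.478 and 0.466 in untreated and 0.608, 0.607 and 0.655 in monensin libraries. These ranges do not overlap; an exact permutation test of 3 libraries against 3 cannot give a two-sided p below 0.1. Within the light chains, SLC7A5 made up 71.3% ± 0.900 of the level untreated and 75.3% ± 0.223 with monensin, whereas the share of SLC7A6 went from 16.8% ± 1.11 to 7.84% ± 0.216.

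**Figure D2:**
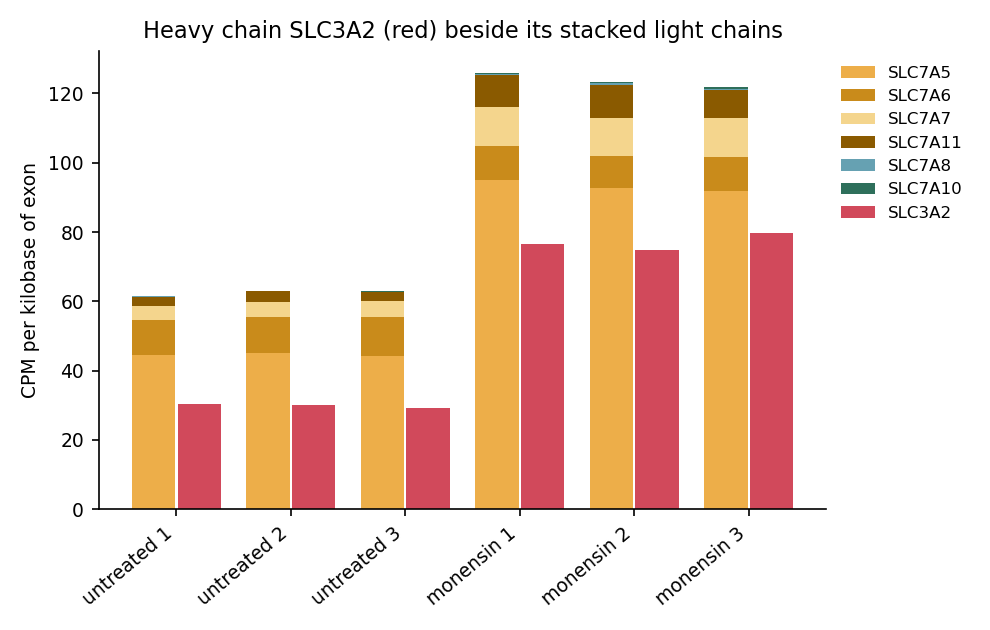
CPM per kilobase of exon in each of the 6 libraries, with the light chains of SLC7 stacked on the left and the heavy chain SLC3A2 on the right of each pair. SLC7A5 forms most of every stack, and the SLC3A2 bars of the monensin libraries, from 74.8 to 79.8, stand above those of the untreated libraries, from 29.3 to 30.3.

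Of the 2 tested cationic amino acid carriers of SLC7, which work without a heavy chain, 1 was lowered and 1 was not called. Among all tested genes 33.7% were lowered. SLC7A1, the main arginine and lysine importer of dividing cells, stood at 193, 211 and 217 CPM untreated and at 221, 217 and 201 CPM with monensin. Its log2 fold change was 0.04 with a 95% interval from -0.06 to 0.15 (edgeR adjusted p = 0.466), and it was called raised with total counts as the scale (0.13, adjusted p = 0.0405). Without untreated library 1 its value was -0.01. SLC7A2, an inducible arginine carrier of macrophages, was lowered from 17.7, 21.1 and 19.3 CPM to 10.2, 12.1 and 9.89 CPM (log2 fold change -0.85, SE 0.09, edgeR adjusted p = 5.31e-07). SLC7A3 had 12 and 18 counts over the untreated and monensin libraries, and SLC7A4 and SLC7A14 had none.

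In SLC1 both neutral amino acid exchangers were raised, and of the 2 tested glutamate carriers 1 was lowered. Among all tested genes 34.1% were raised and 33.7% lowered. SLC1A5, the sodium-dependent glutamine exchanger, lies on chromosome 19 from 46774883 to 46788594 and was the most abundant member per kilobase in both groups. It was measured at 290, 286 and 281 CPM untreated and at 501, 493 and 527 CPM with monensin. The groups were far apart relative to their spread, with a log2 fold change of 0.83 (SE 0.04, edgeR adjusted p = 7.25e-11). SLC1A4, which exchanges serine, alanine and cysteine, rose from 72.6, 80.2 and 77.5 CPM to 185, 171 and 168 CPM (log2 fold change 1.19, SE 0.05).

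SLC1A3, a glutamate and aspartate importer of glia and macrophages, went the other way. It fell from 28.4, 31.2 and 30.1 CPM to 24.5, 25.1 and 24.2 CPM (log2 fold change -0.28, SE 0.06, edgeR adjusted p = 0.000572). After the correction for GC content and exonic length SLC1A3 was no longer called (-0.10, adjusted p = 0.0804). SLC1A1, a neuronal and epithelial glutamate carrier, ranged from 2.55 to 2.79 CPM untreated and from 2.31 to 2.65 CPM with monensin and was not called. SLC1A7, a glutamate carrier of the retina, had 22 and 46 counts over the untreated and monensin libraries and did not pass the filter. SLC1A2 had 2 and 0 counts, and SLC1A6 had none.

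**Figure D3:**
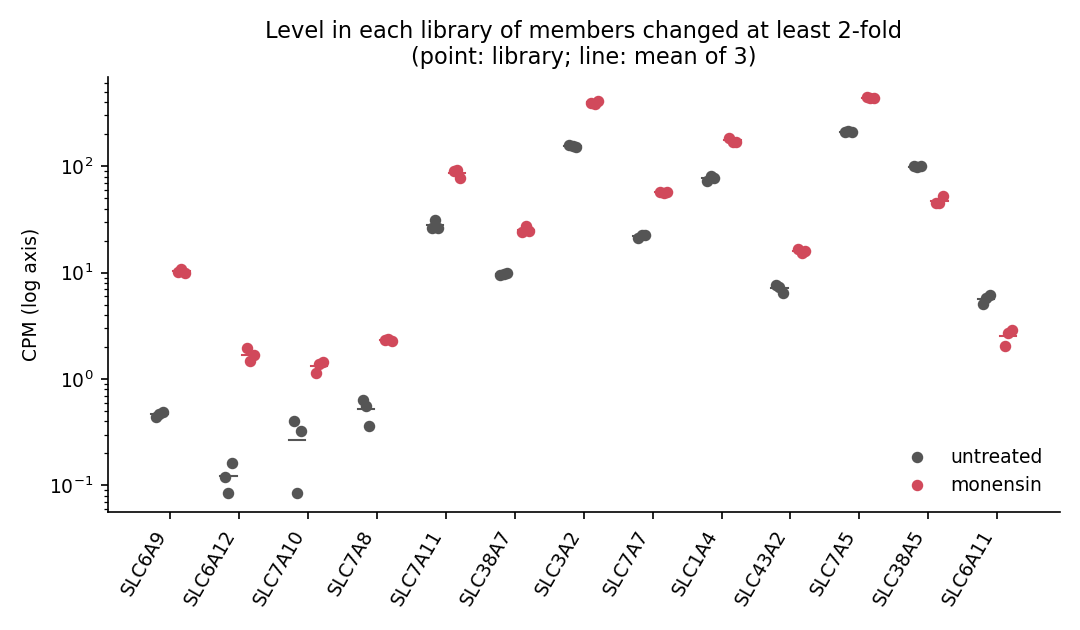
CPM in each library, on a log axis, of the 13 members changed at least 2-fold, ordered by fold change; points are libraries and lines are group means. In these members the 3 monensin libraries lie on 1 side of the 3 untreated libraries, and the levels run from under 1 CPM (SLC6A12, SLC7A10) to 442 CPM as the monensin mean of SLC7A5.

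SLC6 held the 2 largest log2 fold changes among the tested members, those of SLC6A9 and SLC6A12, and 13 of its 19 members did not pass the filter. SLC6A9, the glycine transporter GLYT1, lies on chromosome 1 from 43991500 to 44031467. It had 0.441, 0.472 and 0.485 CPM untreated and 10.1, 10.9 and 9.89 CPM with monensin, a log2 fold change of 4.45 (SE 0.15, edgeR adjusted p = 1.25e-12). Its counts, 11, 11 and 12 against 259, 272 and 231, show that the untreated level was low but present in every library. SLC6A9 shares 404 exonic bases with CCDC24 on the opposite strand, a gene with 155 and 269 counts over the untreated and monensin libraries.

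SLC6A12, a carrier of betaine and GABA known for its induction by osmotic stress, rose from 3, 2 and 4 counts to 50, 37 and 39 counts. The log2 fold change was 3.73 (SE 0.33, edgeR adjusted p = 6.5e-08), with a 95% interval from 3.08 to 4.49. The taurine carrier SLC6A6, also known to respond to osmotic stress, stood at 34.2, 32.5 and 37.7 CPM untreated and at 40.4, 40.3 and 34.9 CPM with monensin. SLC6A6 was not called (log2 fold change 0.15, 95% interval -0.00 to 0.30, edgeR adjusted p = 0.0777). It was called raised under 5 alternatives, with adjusted p from 0.00816 to 0.0489, with 0.0378 when untreated library 3 was left out and 0.00816 when monensin library 3 was.

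SLC6A11, a GABA carrier, fell from 5.05, 5.75 and 6.15 CPM to 2.03, 2.72 and 2.87 CPM (log2 fold change -1.16, SE 0.15, edgeR adjusted p = 4.62e-06). The creatine carrier SLC6A8 was not called, with 21.9, 20.2 and 20.7 CPM untreated and 21.3, 22.4 and 22.9 CPM with monensin. Its log2 fold change was 0.09 (95% interval -0.05 to 0.22), and 0.09 with counts of its copy SLC6A10P added; it was -0.11 after the correction for GC content and length and 0.17, called raised (adjusted p = 0.0235), with total counts as the scale. SLC6A16, of no assigned substrate, ranged from 0.300 to 0.485 CPM untreated and from 0.467 to 0.728 CPM with monensin and was not called. In all, 2 of 6 tested SLC6 members were raised and 1 was lowered, beside 34.1% and 33.7% of all tested genes. Of the 2, SLC6A12 passed the filter only through the monensin libraries. Under total counts 4 SLC6 members were raised, but over all tested genes 6582 were then raised, against 5638.

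The 13 SLC6 genes below the filter included the GABA carrier SLC6A13, the monoamine carriers SLC6A2, SLC6A3 and SLC6A4, and the glycine, proline and neutral amino acid carriers SLC6A5, SLC6A7, SLC6A14, SLC6A15, SLC6A17, SLC6A18, SLC6A19 and SLC6A20. The highest of them, the serotonin carrier SLC6A4, had 7 counts over all 6 libraries. The broad neutral amino acid carrier SLC6A14 and the proline carrier SLC6A7 had none.

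Of the 7 tested SLC38 members, 5 were raised and 1 was lowered, beside 34.1% and 33.7% of all tested genes. The system A carriers, which import glutamine and alanine with sodium, were both raised where tested. SLC38A2 went from 106, 121 and 119 CPM to 227, 210 and 193 CPM (log2 fold change 0.87, SE 0.06, edgeR adjusted p = 4.99e-09). SLC38A1 went from 180, 207 and 211 CPM to 302, 309 and 270 CPM (0.56, SE 0.06). SLC38A4, the third system A gene, had 1 count in each group. The system N carrier SLC38A5, which moves glutamine and serine in exchange for protons, was lowered. It lies on chromosome X from 48458537 to 48470256 and went from 100.04, 98.7 and 99.5 CPM to 45.0, 45.1 and 52.6 CPM (log2 fold change -1.07, SE 0.06, edgeR adjusted p = 3.01e-10). With total counts as the scale its value was -0.98, which leaves 1 member lowered at least 2-fold. SLC38A3, the other system N gene, had 4 counts untreated and 21 with monensin and did not pass the filter.

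SLC38A7, which releases glutamine and asparagine from the lysosome, lies on chromosome 16 from 58665109 to 58685104. It rose from 9.42, 9.73 and 9.99 CPM to 23.9, 27.3 and 24.8 CPM (log2 fold change 1.38, SE 0.07, edgeR adjusted p = 2.31e-10). SLC38A9, the lysosomal arginine sensor that signals to the Rag GTPases, stood at 18.2, 16.9 and 18.4 CPM untreated and at 20.1, 19.4 and 19.6 CPM with monensin. The groups did not overlap, but SLC38A9 was not called (log2 fold change 0.14, 95% interval 0.01 to 0.28, edgeR adjusted p = 0.0606). It was called raised after the GC content and length correction (0.44, adjusted p = 1.19e-05), with total counts as the scale (0.23) and with a stricter filter (0.16).

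Of the less studied SLC38 genes, SLC38A6 ranged from 5.14 to 6.05 CPM untreated and from 9.77 to 12.3 CPM with monensin (log2 fold change 0.95, SE 0.11). SLC38A10 ranged from 185 to 206 CPM and from 241 to 258 CPM (0.33, SE 0.05). Both were raised; the correction for GC content and length moved SLC38A10 to 0.16 and SLC38A6 to 1.20. SLC38A6 shares 245 exonic bases with TRMT5 on the opposite strand, a gene with 2888 counts untreated and 2048 with monensin. SLC38A6 itself had 418 and 818 counts, so its count is uncertain. SLC38A8 had 1 count over all libraries, and SLC38A11 had none.

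Of the 2 tested SLC36 members, 0 were raised and 1 was lowered, beside 34.1% and 33.7% of all tested genes. SLC36A4, a high-affinity carrier of proline and tryptophan, was lowered from 69.0, 70.5 and 73.3 CPM to 39.7, 42.7 and 37.9 CPM (log2 fold change -0.82, SE 0.05, edgeR adjusted p = 2.77e-09). The correction for GC content and length moved this to -0.54, still called. SLC36A1, which moves small amino acids with protons out of the lysosome, had 60.4, 63.7 and 66.7 CPM untreated and 65.1, 61.3 and 60.7 CPM with monensin. Its groups overlapped, and its log2 fold change was -0.03 (95% interval -0.14 to 0.08), or 0.06 with total counts as the scale. SLC36A2 and SLC36A3 had 4 and 3 counts over all libraries.

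All 3 SLC43 genes were tested, and each gave another result. SLC43A2, a sodium-independent carrier of large neutral amino acids, rose from 7.62, 7.29 and 6.39 CPM to 16.6, 15.2 and 15.9 CPM (log2 fold change 1.16, SE 0.08, edgeR adjusted p = 7.04e-09). SLC43A1, its close relative, ranged from 58.4 to 63.6 CPM untreated and from 58.6 to 64.8 CPM with monensin and was not called (0.02, 95% interval -0.09 to 0.14). After the correction for GC content and length SLC43A1 was called lowered (-0.20, adjusted p = 0.00166). SLC43A3, a purine carrier named for its sequence rather than for amino acid transport, fell from 164, 163 and 161 CPM to 101, 98.3 and 105 CPM (-0.68, SE 0.04, edgeR adjusted p = 1.31e-09).

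Per kilobase of exon, a few genes made up most of the families' level. In untreated cells the order was SLC1A5 at 85.7 ± 1.38 CPM per kilobase, SLC7A5 at 44.6 ± 0.510, SLC43A3 at 36 ± 0.337, SLC3A2 at 29.9 ± 0.541 and SLC7A1 at 26.9 ± 1.61. Next came SLC38A10 at 25.6 ± 1.40 and SLC38A5 at 24.8 ± 0.165; SLC38A10 did not differ beyond its spread from SLC7A1 or from SLC38A5. With monensin the order was SLC1A5 at 152 ± 5.44, SLC7A5 at 93.2 ± 1.62 and SLC3A2 at 77.1 ± 2.52, followed by SLC38A10 at 32.1 ± 1.15 and SLC38A2 at 31.8 ± 2.54, which did not differ beyond their spread. SLC43A3 moved from place 3 to place 9 and SLC38A5 from place 7 to place 11, while SLC38A2 moved from place 9 to place 5.

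**Figure D4:**
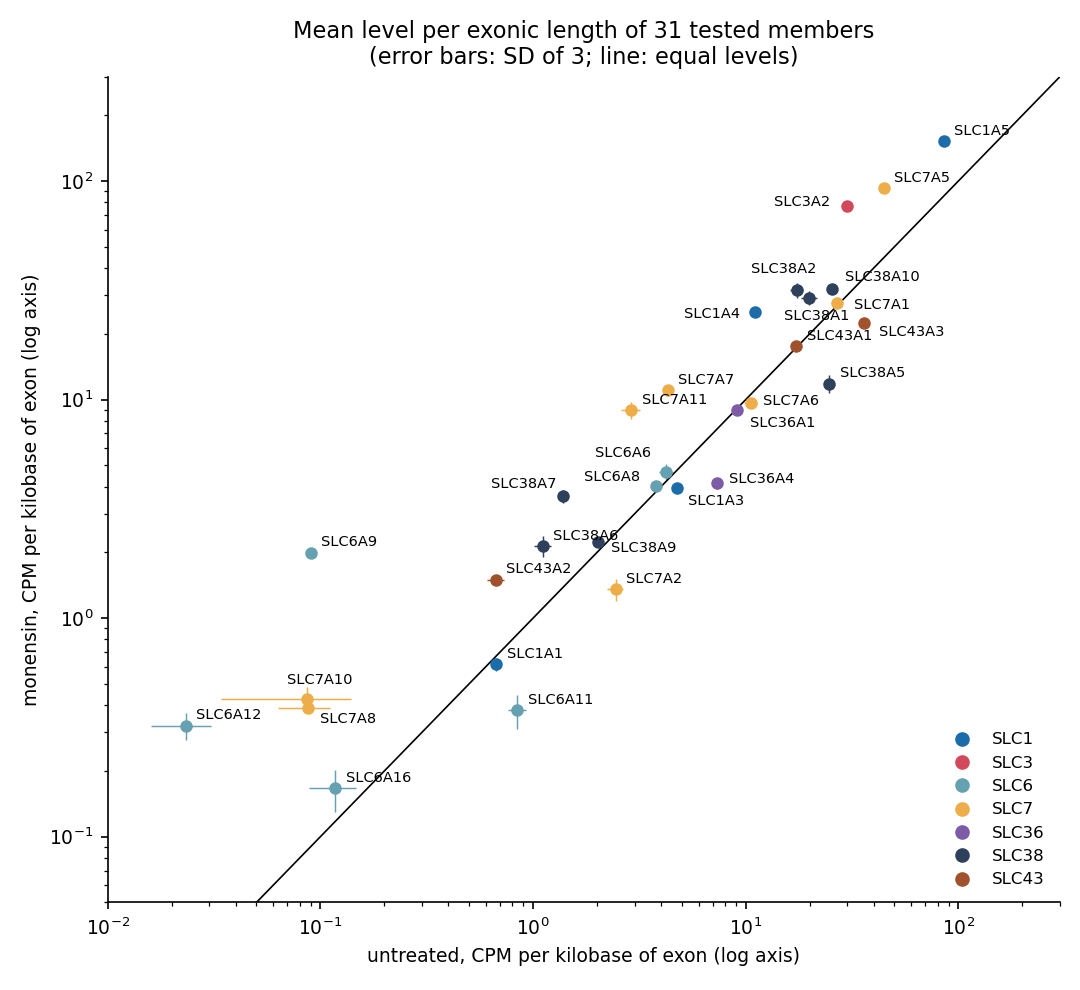
Mean CPM per kilobase of exon in untreated (x) and monensin (y) libraries for the 31 tested members, both on log axes, with SD of 3 libraries as error bars and a line of equal levels. SLC6A9, SLC6A12, SLC7A8 and SLC7A10 lie far above the line at low levels, and SLC1A5 is highest in both groups.

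Summed over all 59 members, the level was 391 to 399 CPM per kilobase in untreated and 585 to 595 in monensin libraries, a ratio of means of 1.49. The sum of SLC3 went from 29.97 ± 0.543 to 77.1 ± 2.51 CPM per kilobase (2.57-fold), that of SLC1 from 102 ± 1.18 to 182 ± 5.01 (1.78-fold) and that of SLC7 from 92.0 ± 2.51 to 153 ± 3.40 (1.66-fold). SLC6 and SLC38 had ratios of 1.27 and 1.23, and SLC36 and SLC43 of 0.795 and 0.768. SLC1 held 25.8% ± 0.478 of the summed level untreated and 30.8% ± 0.660 with monensin, and SLC43 held 13.6% ± 0.159 and 7.01% ± 0.227. These sums are led by the abundant members and describe the families without a test.

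**Figure D5:**
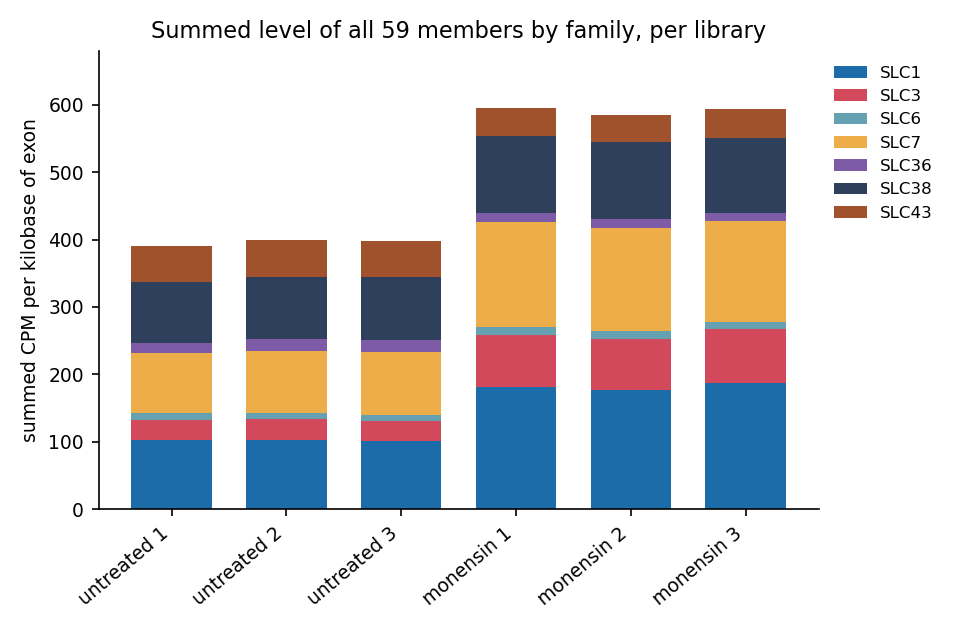
Summed CPM per kilobase of exon of all 59 members in each library, stacked by family. The monensin stacks reach 585 to 595 against 391 to 399 in untreated libraries, with taller SLC1, SLC3 and SLC7 segments and shorter SLC36 and SLC43 segments.

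Several members lie next to a relative in the genome, and close neighbours did not always share a result (GRCh38 positions; members of 1 family with at most 500 kb between them). SLC38A1 and SLC38A2, 88.2 kb apart on chromosome 12, were both raised, as were SLC7A7 and SLC7A8, 295 kb apart on chromosome 14. SLC43A3 and SLC43A1 lie 57.0 kb apart on chromosome 11, with the first lowered and the second not called. SLC6A12 lies 6.05 kb from SLC6A13 on chromosome 12; the first was raised, and the second had 3 counts over all libraries. SLC36A1 lies 89.5 kb from SLC36A2, which was too low to test.

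Of the 28 members that did not pass the filter, 10 had no count in any library, which allows a level of up to 0.0204 CPM over all libraries (3 counts of the total, for counting error only). Another 18 had at least 1 count, and the highest total was the 68 counts of SLC1A7. In all, 24 of the 28 had 10 counts or fewer. With no filter, 2 of the 18 were called raised: SLC1A7 (22 and 46 counts; log2 fold change 1.01, edgeR adjusted p = 0.0259) and SLC38A3, with 2, 2 and 0 counts untreated and 7, 5 and 9 with monensin (2.25, edgeR adjusted p = 0.00688). With DESeq2 neither was called (adjusted p = 0.18 and 0.0692).

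Lists of related genes are described by counts and medians, to be read beside the 34.1% raised and 33.7% lowered among all tested genes. All these lists were chosen with earlier results of these data known, so their counts do not measure enrichment. Of 12 other amino acid and peptide carriers, 8 were tested, 5 were raised and 1 was lowered (median log2 fold change 0.34). SLC15A3, a lysosomal histidine and peptide carrier, rose from 14.4 ± 1.28 to 71.7 ± 5.66 CPM (edgeR adjusted p = 7.1e-13) and the lysosomal cystine exporter CTNS from 5.76 ± 0.459 to 15.4 ± 0.360 CPM (mean ± SD of 3 libraries a group). SLC17A7, a vesicular glutamate carrier, rose from 2.04 ± 0.314 to 9.71 ± 0.0404 CPM. The aromatic amino acid carrier SLC16A10 fell from 8.09 ± 1.07 to 2.26 ± 0.328 CPM (edgeR adjusted p = 1.44e-08).

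Of 9 genes of lysosomal amino acid sensing around SLC38A9, 7 were raised and 1, LAMTOR2, was lowered, with a median of 0.21 (all tested genes: 34.1% raised, 33.7% lowered). The Rag GTPase RRAGD rose from 28.4 ± 1.76 to 73.2 ± 4.14 CPM and RRAGC from 14.1 ± 0.654 to 34.0 ± 1.02 CPM, whereas RRAGA was not called (log2 fold change -0.04, SE 0.05). Of 8 partner and trafficking genes, 6 were tested, 3 were raised and 2 were lowered, with a median of 0.06. These counts stand beside 34.1% raised and 33.7% lowered among all tested genes. LAPTM4B, which helps bring SLC7A5 with SLC3A2 to the lysosome, fell from 192 ± 6.23 to 133 ± 0.562 CPM, and the ubiquitin ligase NEDD4 from 24.1 ± 1.29 to 15.4 ± 1.21 CPM. CLTRN, a partner of SLC6A19, was too low to test, as was SLC6A19 itself.

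Of 11 genes for regulators of carrier transcription, 8 were raised and MYC was lowered, with a median of 0.66, beside 34.1% and 33.7% of all tested genes. Like the other lists, this list was chosen with earlier results known, which may be built into these counts. ATF4, DDIT3, CEBPB and ATF3 rose at least 2-fold, CEBPB from 29.7 ± 1.24 to 89.6 ± 2.21 CPM. NFE2L2, the activator that binds the antioxidant response letters, rose from 80.3 ± 0.906 to 110 ± 2.78 CPM, and its competitor BACH1 was not called (log2 fold change 0.12, SE 0.07).

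The authors' deposited table of regulated genes listed 13 of the 59 members, 11 with a positive and 2 with a negative log2 fold change. These were the same 13 genes that changed at least 2-fold in the fit above, and the values differed by at most 0.0343 on the log2 scale. In the authors' deposited table SLC6A12 stood at 3.77 and SLC6A11 at -1.18.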

How the data were processed

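Counts per gene were analysed for 3 untreated and 3 monensin libraries. The authors deposited raw counts per Ensembl gene, made with Trimmomatic 038, HISAT2 2.1.0 and HTSeq 0.11.1 on hg38, per the submitters' processing notes. The annotation release and strand setting are not given in the sources used here. A table of log2 fold changes for 2410 regulated genes was also deposited by the authors, whose notes name DESeq2 1.22.2. Tally lines that name no gene, 19.1% to 22.0% of each file, were kept out.

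The members and lists were chosen with earlier results of these data known, and the grouping of members by role was written with their values in view. Groups came from the treatment label. All genes were fitted with edgeR 4.0.16 in R 4.3.3 (about 10 counts in 3 libraries as the filter, TMM scaling, quasi-likelihood F test, treatment as the single term) with Benjamini-Hochberg adjustment over 16542 genes. Standard errors came from the coefficient and its F statistic. Exonic lengths, GC content and positions came from GENCODE 29, which held 99.8% of gene identifiers. CPM per kilobase is CPM divided by exonic length. Alternatives were RLE scaling, total counts, no filter, a filter at 1 CPM in 3 libraries with 50 counts in all, a block for the replicate number, DESeq2 1.42.0, leaving out each library, an adjusted p under 0.01, a correction for GC content and exonic length by splines, and adding the counts of copies. The fit was tested on simulated data. Every tested member was named; values in every library were given for members changed at least 2-fold and for 17 anchor genes. No libraries were identical. The chi-square between replicates was 1.93 to 5.09 per degree of freedom, so none was counted as a repeat. Values of some single genes that did not pass the filter or served as markers are not reported here.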

Additional observations from a re-analysis of the deposited data

How the results depend on the processing

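Across the alternatives the counts of members raised or lowered stayed within 1.5 times of 16 and 6. With total counts as the scale, 1 member was lowered at least 2-fold, against 2, and SLC6 had 4 raised members. That scale moved all genes: 6582 were raised and 4605 lowered, against 5638 and 5570. SLC7 had 2 lowered members, against 1, with RLE size factors, with no filter and with DESeq2; with a library left out it had 1 to 2 (2 without untreated library 1 or without untreated library 2), and the added call was SLC7A6 each time. After the correction for GC content and exonic length SLC1 had 0 lowered and SLC43 had 2 lowered members.

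Of 435 values of single members, 411 kept their direction and side of the threshold, and 23 of the 31 tested members did so under every alternative that gave a value. Values that changed sign belonged to members that were not called. They were 0.0584 for SLC36A1 under total counts, -0.11 for SLC6A8 after the GC content and length correction, and for SLC43A1 -0.00104 with no filter, -0.00773 with DESeq2 and -0.20 after that correction. With each library left out, SLC7A1 ran from -0.0112 to 0.0814 and SLC43A1 from -0.0171 to 0.0604. Under total counts the median log2 fold change of all tested genes was 0.105, against 0.0192 in the main fit, so values of single members under that scale carry this common shift. The cause of the changes in single members was not tested. SLC6A16 had no value under the stricter filter.

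Deviations from the group means correlated at -0.115, 0.139 and 0.0441 between libraries of the same number. Between libraries of different numbers they ran from -0.194 to 0.152. These values show no pairing by replicate number, but with 3 libraries a group they cannot exclude it. With the replicate number as a block, 16 members were raised and 6 lowered, and over all genes 5515 were raised and 5435 lowered, against 5638 and 5570 without it. Depth limits the 28 members with low counts. With no filter 18 members were raised, SLC1A7 and SLC38A3 being added. SLC1A7 also passed the filter and was called without untreated library 3 (1.29) and without monensin library 2 (1.30). It passed but was not called without untreated library 1 (0.716, edgeR adjusted p = 0.149) or untreated library 2 (1.12, edgeR adjusted p = 0.0558).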
